A study of Homo sapiens with 20 samples.

Results

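ZNF667 and the antisense transcript ZNF667-AS1 lie on human chromosome 19 among other zinc-finger genes, and 9 genes of this stretch are described here out of 44294 genes with values. They are ZNF582, ZNF582-AS1, ZNF583, ZNF667-AS1, ZNF667, ZNF471, ZFP28, ZNF470 and ZNF71. They were taken by gene name, and the stretch was chosen by the measured counts of ZNF667-AS1, which were lower in TLE3 knockout tumors of SJRH30 and not in those of RD. The question was whether the neighbouring genes did the same. Every value of ZNF667-AS1 in the comparisons with knockouts is therefore a description, as are the differences of its neighbours between SJRH30 knockouts and controls, and no p-value is given for them.

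The study sequenced poly(A) RNA from 20 tumors grown in NOD/SCID mice, which have few lymphocytes but keep macrophages, vessels and connective tissue of the mouse. RD is a line from an embryonal rhabdomyosarcoma, and SJRH30 (also RH30) is a line from an alveolar rhabdomyosarcoma with a PAX3-FOXO1 fusion. Each line was grafted as non-targeting control cells or as cells with TLE3 knocked out, which gives 4 groups of 5 libraries: RD control, RD knockout, SJRH30 control and SJRH30 knockout. TLE3 encodes a Groucho family corepressor, a protein that DNA-bound factors recruit to silence genes. The labels give no guide, clone, batch or mouse, so it is not known whether the 5 libraries of a group come from separate mice, and p-values measure the spread between these libraries, which may be partly technical.

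KRAB zinc-finger proteins bind DNA through arrays of zinc fingers, and their KRAB domain recruits the corepressor TRIM28 (KAP1), which brings the histone methyltransferase SETDB1 to the bound site. Many of their genes arose by tandem duplication and stand side by side on chromosome 19, and their start sites are often rich in CG dinucleotides, the letters that carry DNA methylation. ZNF667 encodes a KRAB zinc-finger repressor, known in rat as Mipu1 and studied there in heart ischemia. ZNF667-AS1, also called MORT, is a long noncoding RNA known for being lost with methylation of its start site in many cancers. ZNF582, ZNF583, ZNF471, ZFP28 and ZNF470 encode other KRAB zinc-finger proteins, ZNF71 encodes a zinc-finger protein, and ZNF582-AS1 is a noncoding transcript that starts beside ZNF582. Methylation of ZNF582 is used as a marker in cervical screening.

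All coordinates are GRCh38 with GENCODE 29 annotation. ZNF667 (ENSG00000198046.11) runs on the minus strand at chr19:56439325-56478065, and ZNF667-AS1 (ENSG00000166770.10) runs on the plus strand at chr19:56477250-56500666. The pair overlap head to head over 816 bases, of which 136 are exonic in both genes. The labels do not say that the libraries keep strand, so reads of these 136 bases cannot be told apart, but they make up 3.75% of the exonic length of ZNF667-AS1 and 1.54% of that of ZNF667. On the side of lower coordinates, ZNF582 (chr19:56375846-56393545, minus strand), ZNF582-AS1 (chr19:56393656-56399172, plus strand) and ZNF583 (chr19:56397966-56436035, plus strand) start at -84.5, -84.4 and -80.1 kb relative to the start of ZNF667. ZNF582-AS1 and ZNF583 share 190 exonic bases, which are 9.33% of the exonic length of ZNF582-AS1. On the other side, ZNF471 (chr19:56507843-56530221) starts 29.8 kb away, ZFP28 (chr19:56538948-56556810) 60.9 kb, ZNF470 (chr19:56567511-56588911) 89.4 kb and ZNF71 (chr19:56595264-56626481) 117.2 kb, all on the plus strand.

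The start region of the pair is shown because both genes differ most between groups and their start sites lie close together. The windows come from RefSeq on GRCh38.p14, hold 250 bases before the annotated start and 50 after it, and are printed in the direction of the gene with each CG in capitals. The ZNF667 window lies at chr19:56477296-56477595 on the minus strand, and the first of the ZNF667-AS1 windows lies at chr19:56477624-56477923 on the plus strand. RefSeq thus places the start of ZNF667 at lower coordinates than that of ZNF667-AS1. Genes with these starts would not overlap as they do in GENCODE.
ZNF667: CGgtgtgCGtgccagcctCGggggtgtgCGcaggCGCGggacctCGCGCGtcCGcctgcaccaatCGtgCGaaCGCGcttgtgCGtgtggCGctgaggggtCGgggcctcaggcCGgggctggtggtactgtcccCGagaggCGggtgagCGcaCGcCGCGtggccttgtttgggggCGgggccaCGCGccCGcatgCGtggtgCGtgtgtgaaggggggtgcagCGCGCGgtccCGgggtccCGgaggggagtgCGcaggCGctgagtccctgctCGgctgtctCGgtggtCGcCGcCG
ZNF667-AS1: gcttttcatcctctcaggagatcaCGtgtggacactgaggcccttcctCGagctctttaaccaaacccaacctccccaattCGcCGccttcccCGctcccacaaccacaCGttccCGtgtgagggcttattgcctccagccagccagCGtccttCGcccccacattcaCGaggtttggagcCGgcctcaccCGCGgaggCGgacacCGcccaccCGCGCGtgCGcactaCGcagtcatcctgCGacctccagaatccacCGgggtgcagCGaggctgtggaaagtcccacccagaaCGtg
The ZNF667 window holds 42 CG dinucleotides, and 5.85% of all RefSeq windows of this length hold at least as many. The ZNF667-AS1 window holds 24, a number that 33.9% of all windows reach. A window was found for 7 of the 9 genes, ZNF582-AS1 under its RefSeq name ZNF582-DT, and their 9 windows hold a median of 30 CG, against a median of 14 over all 35116 windows.

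Patterns of 5 fixed letters, 2 free letters and 5 fixed letters were sought on both strands of the windows, with ZNF582 and ZNF582-AS1 counted once because their windows overlap. There were 3 patterns shared by 3 or more genes. ACTACNNTTCCC is in windows of ZNF667-AS1, ZNF470 and ZNF71, CCTGCNNCCTCC in those of ZNF582-AS1, ZNF667-AS1 and ZNF71, and CGCGCNNGCGCA in those of ZNF667, ZNF667-AS1 and ZNF71. The first is shown because it resembles the core of the motif known for the factor ZNF143 and is frequent in chromosome 19 zinc-finger windows, and both the spacing of the search and this choice were made after the windows were read. Each line gives 40 bases around a match with the motif in capitals. The ZNF667-AS1 match comes from its second RefSeq window (chr19:56478065-56478104, plus strand), the ZNF470 match from chr19:56567414-56567453 on the plus strand, and the ZNF71 match from chr19:56595222-56595261 on the minus strand.
ZNF667-AS1: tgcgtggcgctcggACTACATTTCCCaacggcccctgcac
ZNF470: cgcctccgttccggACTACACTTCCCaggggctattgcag
ZNF71: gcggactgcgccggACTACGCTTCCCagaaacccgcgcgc
ACTACNNTTCCC is in 351 of all 35116 windows (1.0%) and in 49 of 316 windows of other chromosome 19 zinc-finger genes (15.5%). The shares for CCTGCNNCCTCC are 0.982% of all windows and 0.316% of the zinc-finger windows, and those for CGCGCNNGCGCA are 2.18% and 4.11%. Of the 3 genes that hold the first pattern, ZNF667-AS1 was much lower in SJRH30 knockouts, and ZNF470 and ZNF71 overlapped between SJRH30 controls and knockouts. A match describes the letters only, and no binding was measured.

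The values are normalized counts made by the authors, which are not raw counts. Of the 20 libraries, 18 hold 37072 to 42412 genes above 0, and their read depth is not known. RD knockout 5 and SJRH30 control 3 stand apart as shallow libraries with 9.65 M and 2.14 M reads, read from the size of 1 read in their values. Mitochondrial genes made up 6.87% and 4.54% of their counts, against 0.441% to 3.45% in the 18 others. On the log2 scale RD knockout 5 had Pearson correlations of 0.816 to 0.865 with the other RD knockouts, which had at least 0.934 among themselves. SJRH30 control 3 had 0.577 to 0.696 with the other SJRH30 controls, which had at least 0.932. How much of this comes from depth was not tested. Results are given with and without both. TLE3 itself had a lowest, median and highest count of 1270, 1809 and 2622 in RD controls and of 424, 1357 and 1547 in RD knockouts. In SJRH30 it was 185, 426 and 638 in controls and 582, 806 and 967 in knockouts, so the libraries labelled SJRH30 knockout held more TLE3 RNA than most of those labelled control. Counts over the whole gene do not show a small frameshift mutation and so do not check the labels, and SJRH30 control and SJRH30 knockout stand throughout for the libraries labelled so. The muscle tumor markers MYOD1, MYOG and DES were above 0 in all 20 libraries, and MYF5 was at 0 in 9 of them.

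ZNF667-AS1 was high in RD tumors, lower in SJRH30 controls and near the floor in SJRH30 knockouts. Its normalized counts were 407, 641, 634, 1319 and 848 in RD controls 1 to 5. In RD knockouts they were 899, 505, 804, 576 and 444. SJRH30 controls had 172, 171, 142, 95 and 189, and SJRH30 knockouts had 8, 19, 14, 13 and 4. Both RD groups overlap across their whole range, every SJRH30 control lies below every RD library, and every SJRH30 knockout lies below every SJRH30 control. The value in shallow SJRH30 control 3 rests on 13 reads.

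ZNF667, the protein-coding partner, followed the same order. Its counts were 331, 467, 605, 401 and 490 in RD controls, and 534, 435, 451, 519 and 395 in RD knockouts. SJRH30 controls had 103, 66, 131, 101 and 80, and SJRH30 knockouts had 17, 31, 16, 9 and 7. The RD groups overlap, and the highest SJRH30 knockout lies below the lowest SJRH30 control. The value in SJRH30 control 3 rests on 12 reads.

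**Figure D1:**
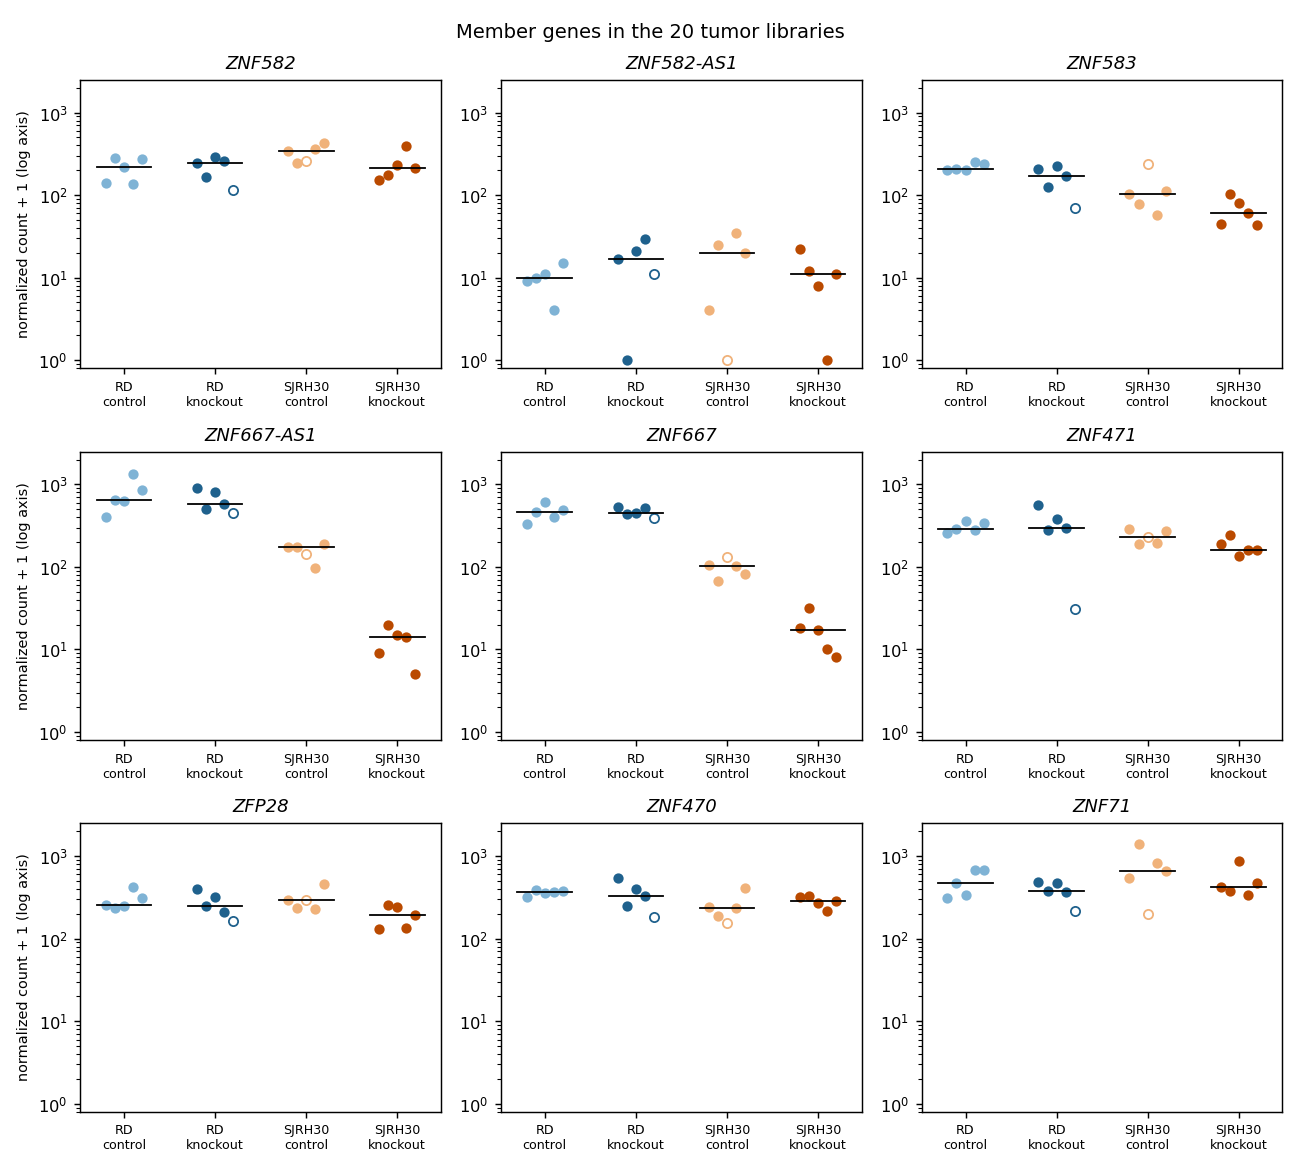
Normalized count + 1 on a log axis for each of the 9 genes in each of the 20 libraries, in genome order; points are libraries, bars are group medians and open points are both shallow libraries. ZNF667-AS1 and ZNF667 separate all 4 groups except the RD controls from the RD knockouts, while the other 7 genes overlap between control and knockout in both lines.

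In SJRH30 the ZNF667-AS1 mean was 154 ± 37.0 in controls and 11.6 ± 5.77 in knockouts (SD, n = 5 each), a ratio of 13.3. On the log2(count + 1) scale the difference was -3.73 ± 0.49 (standard error), and -3.75 ± 0.48 without the shallow control. ZNF667 had 96.2 ± 24.8 in controls and 16.0 ± 9.43 in knockouts, a ratio of 6.01, with a difference of -2.65 ± 0.50, or -2.53 ± 0.48 without the shallow control. The median difference over all 40028 genes tested was 0.17, and 0.03 without the shallow control. The authors' deposited table gives a ratio of knockout to control of 0.073 for ZNF667-AS1 and of 0.179 for ZNF667. The ratio of means for ZNF667 was 0.166 with all libraries and 0.183 without the shallow control, and which libraries the authors used is not known. These values belong to the comparison that chose the genes.

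The 7 other genes did not separate between SJRH30 controls and knockouts. ZNF583, nearest to the pair on the low side, had 102, 76, 240, 57 and 111 in controls and 44, 101, 79, 59 and 43 in knockouts. Its highest control is the shallow library, and without it the difference moved from -0.74 ± 0.47 to -0.43 ± 0.40. ZNF471, nearest on the high side, had 290, 187, 229, 194 and 271 in controls and 191, 240, 136, 161 and 158 in knockouts, a difference of -0.41 ± 0.32. Both genes overlap between the groups.

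ZFP28 had 295, 233, 294, 228 and 461 in SJRH30 controls and 131, 256, 241, 134 and 195 in knockouts, a difference of -0.66 ± 0.35. ZNF582 had 340, 247, 261, 358 and 430 in controls and 152, 174, 233, 395 and 214 in knockouts, a difference of -0.54 ± 0.35. In both genes 3 or more knockouts lie below all controls and the highest knockout lies within the control range. ZNF71 had 548, 1400, 196, 820 and 656 in controls and 423, 381, 875, 340 and 477 in knockouts, with a difference of -0.36 ± 0.48 that became -0.77 ± 0.34 without the shallow control, which is the lowest control. ZNF470 had 243, 188, 153, 233 and 408 in controls and 323, 329, 266, 216 and 286 in knockouts, a difference of 0.28 ± 0.34. ZNF470 was thus the 1 gene with a difference above 0.

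ZNF582-AS1 was barely detected. It had 8, 9, 10, 3 and 14 in RD controls and 16, 0, 20, 28 and 10 in RD knockouts. In SJRH30 controls it had 3, 24, 0, 34 and 19 and in knockouts 21, 11, 7, 0 and 10. Values from 0 upward occur in 3 of the 4 groups, and the SJRH30 difference of -0.32 ± 1.08 has an error larger than itself.

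Of the 9 genes, 1 passed an adjusted p below 0.05 (limma) as lower in SJRH30 knockouts, ZNF667-AS1, where 0.00999% of all genes did. That call was lost when any 1 SJRH30 library other than control 3 was left out. Without the shallow control both ZNF667-AS1 and ZNF667 passed, where 0.29% of all genes passed as lower. Both were also the 2 genes whose groups did not overlap, where 0.71% of all genes were lower without overlap. Since this comparison chose the genes, nothing is read from these counts. The 7 other genes had a median difference of -0.41, or -0.61 without the shallow control, beside 0.17 and 0.03 over all genes. In both fits 6 of the 7 lay below 0, where 39.9% of all genes did, and 48.4% without the shallow control.

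**Figure D2:**
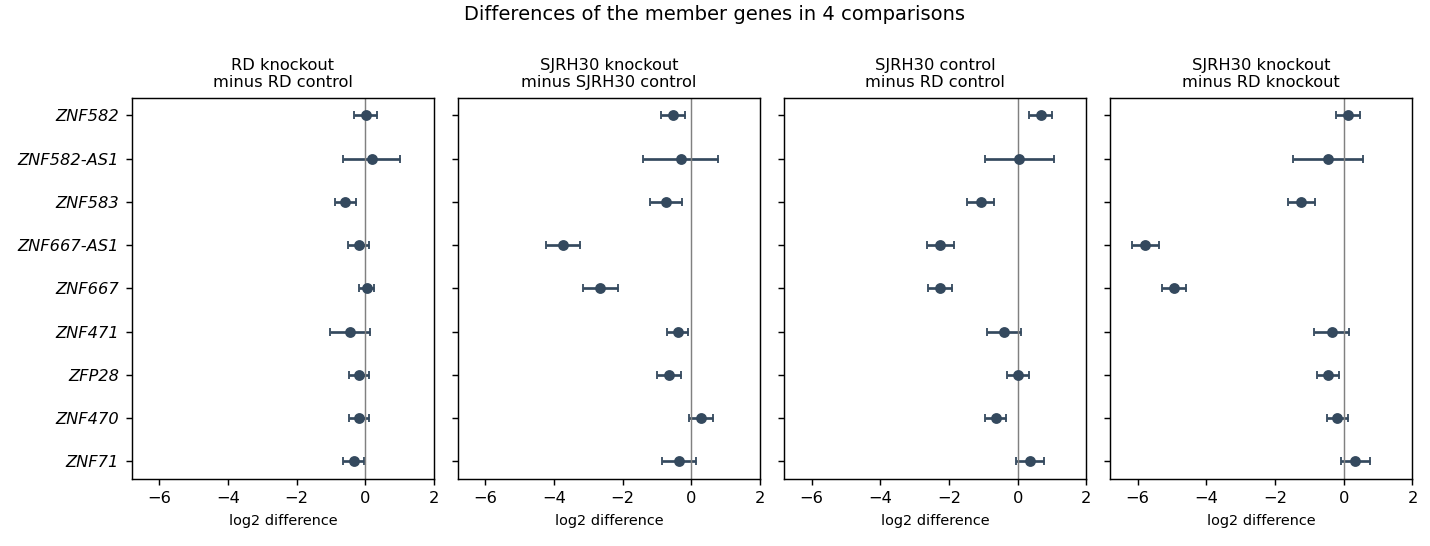
Log2 difference with its standard error for each of the 9 genes in 4 comparisons, all libraries included. ZNF667-AS1 and ZNF667 lie at -3.73 and -2.65 in the SJRH30 knockout comparison, at about 0 in the RD comparison, and far below 0 in both comparisons between lines.

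In RD the knockout left the neighbourhood without a detected change. None of the 8 neighbours of ZNF667-AS1 passed, where 0.142% of all genes did, and all 9 genes overlap between RD controls and knockouts, where 1.31% of all genes were lower and 0.62% higher without overlap. At an unadjusted p below 0.05 there were 3614 of 42917 genes tested. ZNF667 had 459 ± 103 in controls and 467 ± 58.4 in knockouts (SD, n = 5 each), a difference of 0.05 ± 0.22 with a 95% interval of -0.43 to 0.52 (limma adjusted p = 0.966). The interval leaves out a change of the size seen in SJRH30. ZNF667-AS1 had a difference of -0.20 ± 0.31.

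ZNF583 had 201, 206, 200, 252 and 240 in RD controls and 205, 126, 224, 167 and 69 in RD knockouts, where the lowest is shallow RD knockout 5 with 14 reads. Its difference was -0.58 ± 0.32 (limma adjusted p = 0.640), and -0.31 ± 0.24 without that library. ZNF471 had 256, 287, 363, 280 and 344 in controls and 568, 277, 384, 294 and 30 in knockouts. The value of 30 rests on 6 reads, and leaving that library out turned the difference from -0.45 ± 0.59 (limma adjusted p = 0.846) to 0.27 ± 0.24 (limma adjusted p = 0.769). Neither direction was called.

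ZFP28 had 256, 237, 249, 428 and 311 in RD controls and 402, 247, 323, 207 and 163 in knockouts, a difference of -0.18 ± 0.29. ZNF470 had 316, 391, 358, 367 and 380 in controls and 545, 248, 404, 330 and 183 in knockouts, a difference of -0.18 ± 0.28. ZNF71 had 311, 467, 336, 679 and 685 in controls and 483, 380, 478, 372 and 217 in knockouts, a difference of -0.33 ± 0.30. ZNF582 had 141, 282, 221, 134 and 274 in controls and 241, 163, 289, 261 and 114 in knockouts, a difference of 0.01 ± 0.33. In these 4 genes shallow RD knockout 5 is the lowest knockout. Without it the differences were -0.02 ± 0.26 for ZFP28, 0.02 ± 0.24 for ZNF470, -0.14 ± 0.27 for ZNF71 and 0.22 ± 0.29 for ZNF582. With all libraries the limma adjusted p of these 4 genes lay at 0.770 to 0.994. A p that misses the threshold does not show that the groups are alike, and the 95% interval of ZNF71 runs from -0.98 to 0.31.

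The knockout difference in SJRH30 minus that in RD was -3.53 ± 0.55 for ZNF667-AS1 and -2.69 ± 0.50 for ZNF667, and -3.67 ± 0.53 and -2.63 ± 0.48 without both shallow libraries. For the 7 others it lay between -0.55 and 0.46, and between -1.29 and 0.11 without both shallow libraries. In the fit of all libraries ZNF667-AS1 passed as lower, where 0.00677% of all genes did. Without both shallow libraries ZNF667 passed as well, where 0.113% of all genes did. "Only in SJRH30" was part of the choice, so these values are a description too.

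The lines already differed at the pair without knockout. Between controls ZNF667-AS1 was 5.01-fold lower in SJRH30 than in RD (154 ± 37.0 against 770 ± 344, SD, n = 5 each), with a log2 difference of -2.25 ± 0.39 (limma adjusted p = 0.000205). ZNF667 was 4.77-fold lower (96.2 ± 24.8 against 459 ± 103), with a log2 difference of -2.25 ± 0.35 (limma adjusted p = 6.45e-05). All 5 SJRH30 controls lay below all 5 RD controls in both genes. Of the 9 genes these 2 passed as lower, where 12.5% of all genes did, and 8.93% of all genes were lower without overlap. The SJRH30 controls are also the controls of the comparison that chose the genes, so the values are not independent of it.

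The median of all genes in this comparison was -0.45, and -0.03 after quantile scaling, and the values of the genes are read against it. ZNF583 had a difference of -1.07 ± 0.40 (limma adjusted p = 0.0625), and of -1.38 ± 0.31 without both shallow libraries (limma adjusted p = 0.00106). That made 3 of 9 genes lower in SJRH30 controls, where 22.4% of all genes were. Its 240 in shallow SJRH30 control 3 rests on 22 reads and is above the median of the RD controls. ZNF582 lay on the other side of the median of all genes, with 327 ± 75.0 in SJRH30 controls and 210 ± 70.6 in RD controls. Its difference of 0.67 ± 0.34 did not pass (limma adjusted p = 0.171), and after quantile scaling it passed as higher (1.05 ± 0.34, limma adjusted p = 0.0364).

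ZNF71 (0.37 ± 0.42), ZNF471 (-0.39 ± 0.51), ZNF470 (-0.64 ± 0.31), ZFP28 (0.02 ± 0.32) and ZNF582-AS1 (0.05 ± 1.01) did not pass between controls. The authors' deposited table gives ratios of SJRH30 to RD control of 0.203 for ZNF667-AS1, 0.188 for ZNF667 and 0.391 for ZNF583. The ratio of means for ZNF583 was 0.533 with all libraries and 0.394 without both shallow libraries. Which libraries the authors' comparison used is not known, so it may rest on other libraries than the fits here.

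Between knockouts the gap at the pair was wider. ZNF667-AS1 was 55.7-fold lower in SJRH30 knockouts than in RD knockouts (11.6 ± 5.77 against 646 ± 197, SD, n = 5 each), with a log2 difference of -5.78 ± 0.39. ZNF667 was 29.2-fold lower (16.0 ± 9.43 against 467 ± 58.4), with a log2 difference of -4.94 ± 0.35. Every SJRH30 knockout lay below every RD knockout in both. These values share the SJRH30 knockout libraries with the comparison that chose the genes, so they are given with no p-value. Of the 9 genes 3 passed as lower, where 8.94% of all genes did, and 8.97% of all genes were lower without overlap.

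The third was ZNF583, with 65.2 ± 24.8 in SJRH30 knockouts and 158 ± 62.4 in RD knockouts, a log2 difference of -1.23 ± 0.40 (limma adjusted p = 0.0351). That call was lost when any of RD knockouts 1 to 4 or SJRH30 knockouts 1, 4 and 5 was left out, with adjusted p of 0.0523 to 0.0963, and after quantile scaling (-0.82 ± 0.43, limma adjusted p = 0.215). Without both shallow libraries it was -1.50 ± 0.31 (limma adjusted p = 0.000638). ZNF471 passed without both shallow libraries (-1.07 ± 0.26, limma adjusted p = 0.00341, 177 ± 40.2 against 381 ± 133), and with them it was -0.35 ± 0.51, since RD knockout 5 holds 30 counts. Without both shallow libraries 4 of 9 genes passed as lower, where 14.2% of all genes did. The 5 others, ZNF582, ZNF582-AS1, ZFP28, ZNF470 and ZNF71, did not pass in either fit.

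Normalized counts per kilobase of exon allow the levels of genes to be set beside each other. In RD controls ZNF667-AS1 had the highest level of the 9, 212 ± 94.9 normalized counts per kb, ahead of ZNF71 (80.3 ± 29.2), ZNF582 (62.8 ± 21.1) and ZNF667 (52.1 ± 11.6), and the ranges of the latter 3 overlap. ZNF471 (45.1 ± 6.69) and ZFP28 (42.5 ± 11.3) came close behind ZNF667, within its spread. In SJRH30 controls ZNF71 led with 117 ± 71.6 and ZNF582 had 97.7 ± 22.4, and ZNF667-AS1 had 42.4 ± 10.2. In SJRH30 knockouts ZNF71 (80.9 ± 35.0) and ZNF582 (69.7 ± 28.6) led, and the lowest means were those of ZNF667 (1.82 ± 1.07), ZNF667-AS1 (3.20 ± 1.59) and ZNF582-AS1 (4.81 ± 3.73). These 3 do not differ beyond their spread. All are SD over 5 libraries, and which isoforms were present is not known.

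The ratio of ZNF667-AS1 to ZNF667 counts, which is not per kb, differed between libraries from 0.471 to 3.29. Its lowest, median and highest values were 1.05, 1.37 and 3.29 in RD controls, 1.11, 1.16 and 1.78 in RD knockouts, 0.941, 1.67 and 2.59 in SJRH30 controls, and 0.471, 0.613 and 1.44 in SJRH30 knockouts. All 10 RD libraries lie above 1, and 4 of the 5 SJRH30 knockouts lie below it. The ratio in SJRH30 knockouts comes from counts of 4 to 31.

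**Figure D3:**
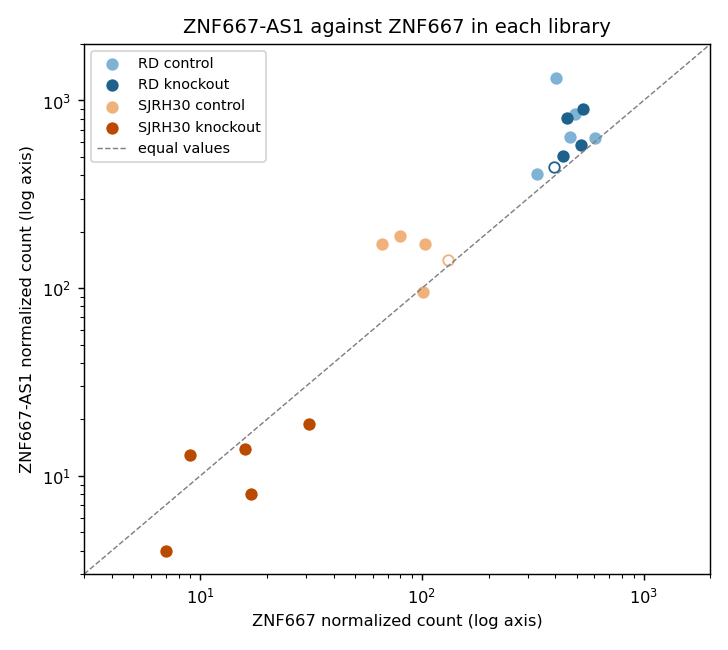
Normalized count of ZNF667-AS1 against that of ZNF667 in each of the 20 libraries, both on log axes, coloured by group; open points are both shallow libraries and the dashed line marks equal values. The 10 RD libraries form 1 cloud above the line, the SJRH30 controls lie lower and the SJRH30 knockouts lowest, near counts of 4 to 31.

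Markers of other cells moved between some groups. These are counts of human genes, while macrophages, vessels and connective tissue in the grafts are of the mouse. Removal of mouse reads is not given. Whether the counts come from human cells or from mouse reads is not known, so they do not measure numbers of mouse cells. The summed counts of 8 fibroblast and pericyte markers had a lowest, median and highest value of 22284, 46732 and 69989 in SJRH30 controls and of 13528, 22029 and 56135 in SJRH30 knockouts. In RD they were 55360, 109989 and 130533 in controls and 14144, 50931 and 95555 in knockouts, also with a lower median in knockouts. COL1A1 and COL1A2 make up most of these sums, and the markers did not all move one way. In SJRH30 5 of the 8 had a lower median in knockouts, 2 a higher and 1 the same, LUM was lower without overlap (556 to 4260 in controls, 268 to 518 in knockouts) and RGS5 higher without overlap (460 to 771 and 786 to 1504). In RD 6 of the 8 had a lower median in knockouts, and PDGFRB and RGS5 had a higher one. The 8 tumor markers summed to 5512, 68871 and 206149 in SJRH30 controls, where the lowest is shallow control 3, and to 64602, 82220 and 104326 in SJRH30 knockouts. The 10 macrophage markers summed to 1482, 6506 and 7228 in SJRH30 controls and to 3132, 3928 and 7954 in SJRH30 knockouts, which overlap. In RD they summed to 4937, 8367 and 8772 in controls and to 2739, 3088 and 4243 in knockouts, lower without overlap, and all 10 had a lower median. The 8 endothelial markers summed to 750, 1119 and 1820 in SJRH30 controls and to 970, 1196 and 2342 in SJRH30 knockouts, and PECAM1 alone of them was higher without overlap (109 to 178 and 475 to 640). In RD the endothelial sums were 1404, 1624 and 3022 in controls and 1537, 1665 and 2512 in knockouts. Only CD14 and AIF1 of these other markers were at 0 in any library. The part of these markers in the differences of the pair was not tested, and in bulk tumors fewer cells with a transcript and less of it per cell cannot be told apart.

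The wider surroundings held no called difference between knockouts and controls of either line with all libraries in the fit. Of 96 other genes with values that start within 1000 kb of ZNF667, 89 were tested in SJRH30 and none passed in the fit of all libraries, with a median difference of 0.14 beside 0.17 over all genes. At an unadjusted p below 0.05 there were 3439 of all 40028 genes. Without the shallow control 1 passed, LLNLR-285B5.1 (AC004696.1 in GENCODE), with 51.0 ± 15.5 in controls (SD, n = 4) and 3.4 ± 3.44 in knockouts (SD, n = 5), a difference of -3.89 ± 0.64. It is an unprocessed pseudogene inside ZNF667-AS1 on the other strand and shares 118 exonic bases with it, so reads of those bases, 3.25% of the exonic length of ZNF667-AS1, cannot be told apart. The median of the surrounding genes was then -0.12 beside 0.03 over all genes, with 50 of 89 below 0.

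**Figure D4:**
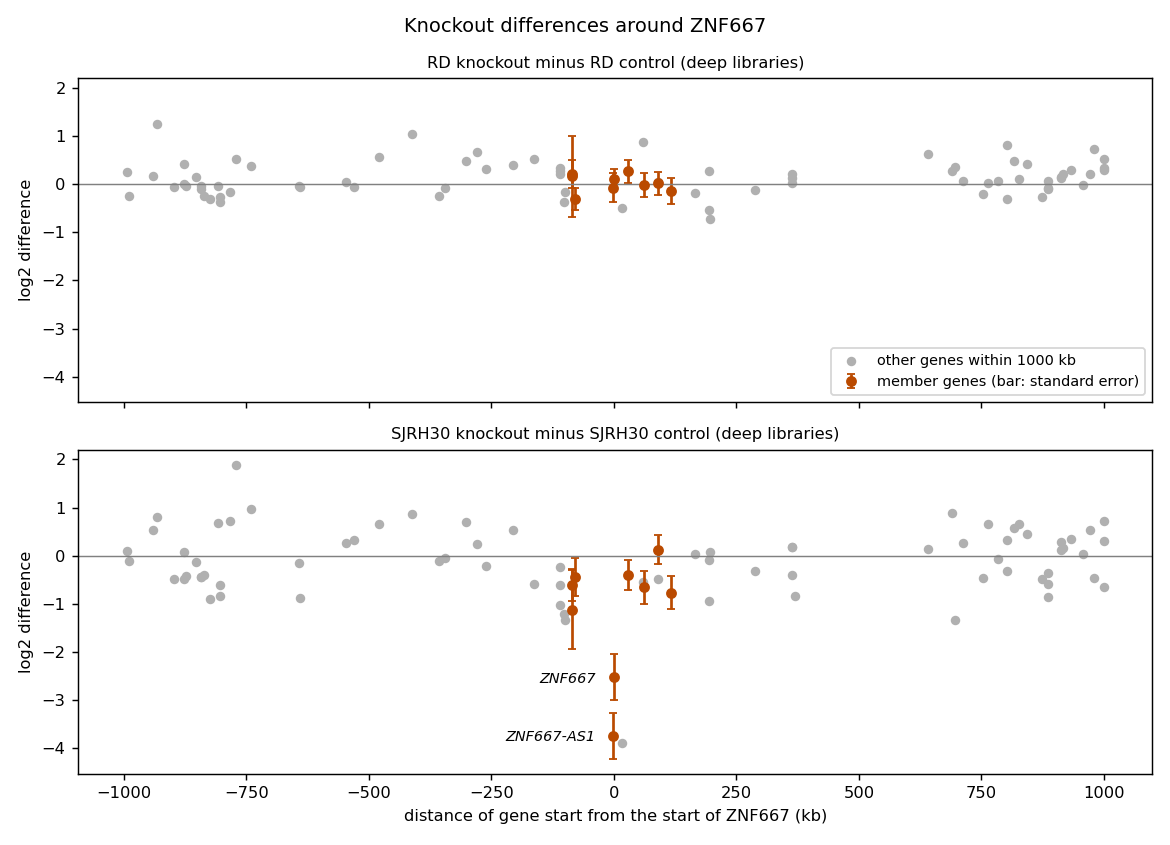
Log2 difference between knockout and control without both shallow libraries for genes with a mean count of at least 10 that start within 1000 kb of ZNF667, against the distance of their start from that of ZNF667 in kb; coloured points are the 9 genes with their standard errors and grey points are other genes. In SJRH30 only ZNF667, ZNF667-AS1 and the overlapping pseudogene LLNLR-285B5.1 (-3.89) lie below -2, and in RD no gene does.

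In RD 93 of the surrounding genes were tested and none passed, with a median of -0.03 beside -0.09 over all genes. Between controls of the lines 8 of the 96 were higher in SJRH30 and 1 lower, where 6.23% of all genes were higher and 12.5% lower. The highest were MIMT1 (6.07 ± 0.62), PEG3 (5.88 ± 0.36), AC004792.1 (5.31 ± 0.58) and ZIM2 (4.25 ± 0.29), which start 362.7 to 370.0 kb from ZNF667 in a cluster known for imprinting. Across 291 other zinc-finger genes of chromosome 19, 289 were tested in SJRH30 and none passed, where 0.00999% of all genes passed as lower. Without the shallow control 1 was higher and 4 were lower, where 78 of all 39720 genes were higher and 115 (0.29%) lower. In RD 1 of 289 passed, as lower, where 0.142% of all genes passed. The RD median of these genes was 0.20 beside -0.09 over all genes. Between controls of the lines 23 of the 291 were higher and 44 lower in SJRH30. The shares of all genes were 6.23% higher and 12.5% lower. Between knockouts 20 were higher and 58 lower, where 8.01% of all genes were higher and 8.94% lower.

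Neither list of genes that act on such loci held a called gene in a knockout comparison. The shares of all genes called were 0.00999% in SJRH30, all as lower, and 0.142% in RD. At such shares the absence of calls in short lists does not show that these genes were unchanged. The 18 KRAB corepressors, among them TRIM28 and SETDB1, had no call in SJRH30 or RD, with medians of 0.29 and 0.08 beside 0.17 and -0.09 over all genes. Without the shallow libraries they had no call either, and the medians moved to -0.04 and 0.26 beside 0.03 and 0.02. The 11 genes of DNA methylation hold the methyltransferases DNMT1, DNMT3A and DNMT3B and the TET oxidases. They had no call in either fit, with medians of 0.37 and 0.15 with all libraries. Between controls of the lines 1 of these 11 genes was higher and 1 lower in SJRH30, where 6.23% of all genes were higher and 12.5% lower. DNMT3B, a de novo methyltransferase, was higher (1.42 ± 0.24, limma adjusted p = 0.000189). TET2, which oxidises methylated cytosine, was lower (-1.09 ± 0.28, limma adjusted p = 0.00805). Without both shallow libraries DNMT3B was the 1 higher, where 18.1% of all genes were. Then 3 of the 11 were lower, DNMT3L (-1.65 ± 0.43), TET2 (-1.18 ± 0.26) and MBD2 (-0.68 ± 0.20), where 22.4% of all genes were. Between knockouts, with all libraries, DNMT3B alone of the 11 was higher (1.17 ± 0.24, limma adjusted p = 0.00137), where 8.01% of all genes were. Of the 18 corepressors 2 were higher there. They were MPHOSPH8, a HUSH complex member (1.91 ± 0.46, limma adjusted p = 0.00542), and SUV39H1, a histone H3 lysine 9 methyltransferase (1.45 ± 0.47, limma adjusted p = 0.0369). MPHOSPH8 was uneven, with 5268 ± 5121 in SJRH30 knockouts and 1178 ± 532 in RD knockouts (SD). Without both shallow libraries 9 of the 18 corepressors were higher in SJRH30 controls than in RD controls, with CHD3 (1.75 ± 0.29), SUV39H1 (1.70 ± 0.28), EHMT2 (1.39 ± 0.31) and TRIM28 (1.35 ± 0.36) in the lead, where 18.1% of all genes were higher, and none passed with all libraries. Methylation of the locus was not measured.

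Across the 20 libraries ZNF667 and ZNF667-AS1 had a Pearson correlation of 0.970 on the log2 scale, and ZNF583 had 0.808 with ZNF667-AS1. The others had 0.571 (ZFP28), 0.360 (ZNF471), 0.326 (ZNF470), 0.07 (ZNF582-AS1), -0.05 (ZNF71) and -0.08 (ZNF582). Without both shallow libraries ZNF471 moved to 0.809 and ZNF583 to 0.900. The libraries share 2 lines and 4 groups, so these values describe an order of groups more than 20 separate points.

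Among 21931 genes with a mean count of at least 50, the 5 most like ZNF667-AS1 were ZNF354C (0.959), SLC24A3 (0.958), ZNF135 (0.949), ZSCAN18 (0.940) and TUB (0.935). Those most like ZNF667 were SLC24A3 (0.968), MAGEA2B (0.959), ZNF135 (0.956), ADCY1 (0.956) and MGMT (0.956). Of these genes only ZNF135 and ZSCAN18 lie on chromosome 19. ZNF354C is on chromosome 5, SLC24A3 on 20, TUB on 11, MAGEA2B on X, ADCY1 on 7 and MGMT on 10. ZNF135, a KRAB zinc-finger gene elsewhere on chromosome 19, had 1246 ± 320 in RD controls, 957 ± 441 in RD knockouts, 132 ± 57.7 in SJRH30 controls and 31.6 ± 10.3 in SJRH30 knockouts. ZSCAN18, a SCAN domain zinc-finger gene of chromosome 19, had 1476 ± 361, 1173 ± 388, 152 ± 74.7 and 35.6 ± 9.48 in the same order. MGMT, which repairs alkylated guanine, had 2044 ± 295, 2260 ± 499, 539 ± 130 and 247 ± 61.0. All 3 repeat the order of groups by which they were picked, and their correlation is a description.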

How the data were processed

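The 20 libraries were grouped by their titles, and each column of the deposited table carries the number in 1 title. Per the submitters' processing notes the tools were FastQC, fastp 0.20.1, STAR 2.7, featureCounts and edgeR with GRCh38 p7, with no order, settings or removal of mouse reads given. The deposited score is a count per gene that the authors normalized and rounded to whole numbers. Per the file headers the authors also deposited a ratio (FC), a log2 fold change and p-values for each of 4 comparisons, and some of their ratios are printed as theirs.

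No count model was run, since the values are not raw counts. Values were taken as log2(count + 1), so folds of low genes are understated. Genes with a value of at least 1 in 5 libraries were fitted with limma 3.58.1 (R 4.3.3, trend), with Benjamini-Hochberg adjustment over all genes, two-sided, called below 0.05. Knockout comparisons used the 10 libraries of a line and the others all 20 libraries as 4 group means. Read depth was taken from the step between low values in both shallow libraries, where all low values were whole steps within 0.1. The fits were also run on simulated data in which the noise of a gene had the same spread in all libraries compared. That simulation held no shallow library, so it does not bear on calls that depend on the shallow libraries. Promoter windows are RefSeq's. The 9 genes, the lists and the naming rule (all 9 genes, the 5 most correlated with ZNF667-AS1 and with ZNF667, and the list genes that passed, at most 4 per list) were chosen with earlier results of these data known. RNA was extracted with 1 of 2 kits, not given per tumor. Alternatives were another pseudocount, other filters, quantile scaling, a replicate block, all libraries in 1 fit, and leaving out libraries.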

Additional observations from a re-analysis of the deposited data

Results flagged for a closer look

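ZFP28 in SJRH30 controls had 1 library far above the others, 461 beside 228 to 295. ZNF71 in SJRH30 knockouts had 1 library far above the others, 875 beside 340 to 477. Chance flags about 1 in 20 such groups, and 36 groups were examined. The knockout effect on ZNF667-AS1 differed between the lines by -3.53 (SJRH30 minus RD, log2), a difference that was part of the choice of genes. That on ZNF667 differed by -2.63 without both shallow libraries.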

How the results depend on the processing

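Depth limits low values: 1 read is worth 10.9 units in SJRH30 control 3 and 4.93 in RD knockout 5, and the depth of the other 18 libraries is not known. In the SJRH30 knockout comparison 1 of 9 genes was called, and the count was 0 with no filter and with a replicate block, 2 without both shallow libraries and with all 20 libraries in the fit, and 0 to 2 when 1 library was left out. It was 2 only without SJRH30 control 3 and 0 without any of the 9 other libraries. In the comparison of knockout effects between lines 1 was called, and the count was 2 after quantile scaling and without both shallow libraries, 0 with the replicate block and 0 to 2 when 1 library was left out. The ZNF667-AS1 difference in SJRH30 was -2.93 with a pseudocount of 10, and -3.93 to -3.43 when 1 library was left out. The cause was not tested.

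Uncalled differences changed sign without both shallow libraries for ZNF471 (0.27) and ZNF470 (0.0197) in RD and for ZNF582 between knockouts (-0.0811). The difference of knockout effects for ZNF471 (0.04) changed to -0.68 without them, to -0.0027 with a pseudocount of 10 and to -0.0199 after quantile scaling. Leaving out 1 library gave both signs in RD for ZNF667-AS1 (-0.40 to 0.0242), ZNF582 (-0.13 to 0.22), ZNF582-AS1 (-0.19 to 1.03), ZNF667 (-0.0653 to 0.15), ZNF471 (-0.78 to 0.27) and ZNF470 (-0.37 to 0.0197). It did so between controls for ZNF582-AS1 (-0.43 to 0.85) and ZFP28 (-0.15 to 0.16), and between knockouts for ZNF582 (-0.0853 to 0.26), ZNF582-AS1 (-1.30 to 0.27) and ZNF470 (-0.38 to 0.0097). In SJRH30 it did so for ZNF582-AS1 (-1.12 to 0.41), and in the difference of knockout effects for ZNF471 (-0.67 to 0.38), ZNF582-AS1 (-1.35 to 0.22), ZNF583 (-0.43 to 0.14) and ZNF71 (-0.43 to 0.27). Of 811 alternative values for single genes, 759 kept their sign and 52 changed it. Between controls of the lines 2758 genes were higher and 5531 lower, and 3968 and 3779 after quantile scaling.

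Same-numbered control and knockout libraries did not deviate together, with correlations of -0.42 to -0.20 in RD and -0.27 to 0.18 in SJRH30, so the numbers were not taken to pair them. A replicate block moved the calls over all genes from 61 to 9 in RD and from 4 to 0 in SJRH30, and ZNF583 between knockouts to an adjusted p of 0.0507 (limma).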
